A study of Mus musculus with 21 samples.

Results

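The comparison set 3T3-L1 cells that carried an empty vector against M6 cells that carried the label empty vector control. 3T3-L1 is a mouse preadipocyte line that descends from cultured embryonic fibroblasts. M6 is a mouse line grown from a mammary gland tumour of the C3(1)SV40 TAg model, in which the SV40 T antigen is placed under the C3(1) promoter. The columns were chosen by cell line and control label alone, which gave 7 of the 21 deposited columns: 3 of 3T3-L1 and 4 of M6. Columns that are technical replicates per the labels were summed, so each line had 2 of the 14 biological replicates of the series. Of 48440 listed genes, 21237 had enough counts in the series as a whole to be tested. The study as a whole changed the level of Esrp2-as, a long noncoding RNA antisense to the splicing factor gene Esrp2, by knockdown with LNA gapmers in M6 and by overexpression in 3T3-L1 and in the line M27H4. Both lines grew in DMEM with 10% FCS, and the libraries were made strand-specifically from total RNA after depletion of ribosomal RNA. Each line is a single line, so tissue of origin, transformation by T antigen and the history of the line cannot be told apart here. Nothing in the labels says that replicates came from separate cultures. The p-values rest on the spread between replicate libraries, pooled over all 14 biological replicates of the series and not the compared ones alone.

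Preadipocytes are mesenchymal cells committed to the fat lineage. They secrete fibrillar collagens and proteoglycans, express PDGF receptors, and turn on lipid storage genes only after hormonal induction. Mammary epithelial cells are joined by E-cadherin junctions, tight junctions and desmosomes, hold keratin filaments, and use the paralogous RNA-binding proteins Esrp1 and Esrp2 to select epithelial exons. The transcriptional repressors Zeb1 and Zeb2, which bind paired E-boxes, act against the epithelial programme. SV40 large T antigen binds p53 and the retinoblastoma family proteins, and cell cycle genes and p53 targets are therefore of interest in M6.

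The 2 lines differed in 39.4% of the genes tested. In 3T3-L1, 4360 genes were higher than in M6 (20.5%) and 4008 genes were lower (18.9%), by edgeR's quasi-likelihood test with a Benjamini-Hochberg adjusted p under 0.05, which is what a call means below. Replicate ranges of the lines did not overlap for 8336 of these 8368 calls. The calls were made on the same values, so this count adds no support to them. The shares of 20.5% higher and 18.9% lower are the background for every count of list members below. A change of at least 16-fold was found for 1695 of the higher and 1213 of the lower genes. At the other end, the 95% interval of the difference lay within 2-fold in either direction for 4615 genes (21.7%). That count includes tested genes without any count in either control group, such as Dpp4, chosen after its values were seen. For such genes the fit gave an interval of 0 to 0, which shows no likeness of the lines. The correlation of log2 levels across genes was 0.993 between the 3T3-L1 replicates and 0.984 between the M6 replicates, against 0.862 to 0.881 between lines, where genes are not independent replicates. Levels are CPM, counts scaled to the effective library size, and they are compared between samples for a gene and not between genes. Where genes are called abundant below, this refers to their CPM alone, which takes no account of transcript length.

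**Figure D1:**
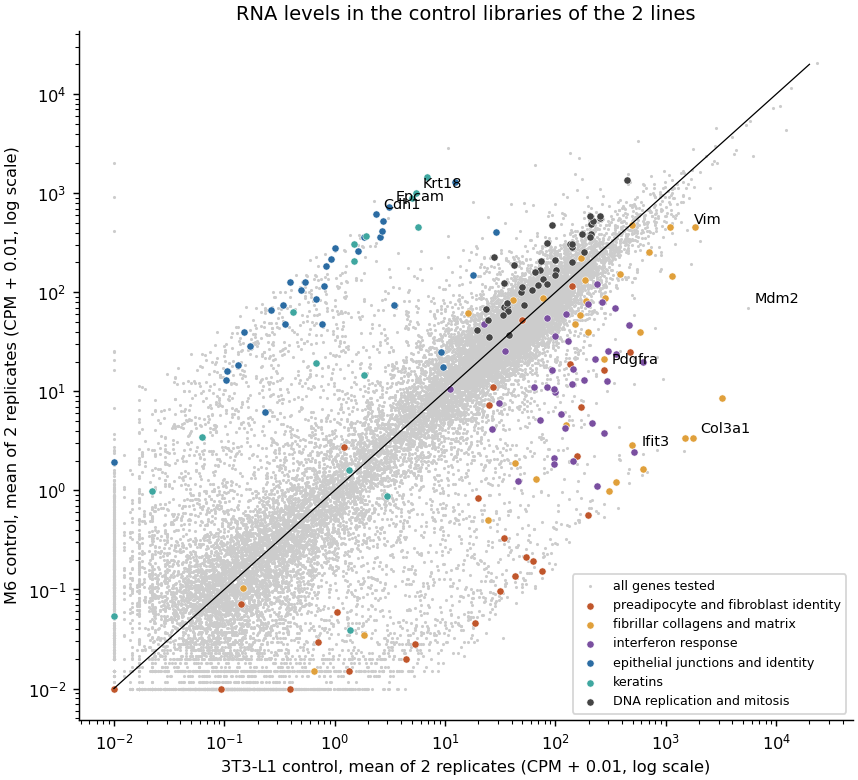
Mean level of each tested gene in 3T3-L1 control (x axis) and M6 control (y axis), each the mean of 2 replicates in CPM + 0.01 on log scales, with 6 gene lists in colour and the line of equal levels. Epithelial junction genes and most keratins lie high in M6, preadipocyte, collagen and interferon genes lie high in 3T3-L1, and Mdm2 averaged 5520 CPM in 3T3-L1 and 69.2 CPM in M6.

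The summed libraries held 218986482 and 121306952 counts in 3T3-L1 and 44613743 and 328493417 counts in M6, with at least 10 counts for 18421 to 19596 genes in 3T3-L1 and 15681 to 19751 genes in M6. In M6, the level of genes that are high in 3T3-L1 differed between columns with the number after LR in the column names, taken here as a sequencing lane and written as lanes A to D in ascending order. For 33 genes that were at 100 CPM or more in 3T3-L1 and under 0.1% of that in M6 replicate 1, the median level in the M6 replicate 2 columns was 0.00734% of the 3T3-L1 level on lane A, 0.46% on lane B and 0.757% on lane C. Lanes B and C also held 3T3-L1 and M27H4 libraries, lane A held only M6 columns of those analysed, and the source of these counts was not tested. For 68 genes high in M6 and under 1% of that level in 3T3-L1 replicate 2, 3T3-L1 replicate 1 held 0.33% and 0.478% of the M6 level on its 2 lanes. Col1a2, the second chain of type I collagen, had 11, 11, 1844 and 3338 counts in the M6 columns on lanes A, A, B and C. Any level given below that is under 1% of the other line's may be carry-over, whether or not this is repeated beside it, which was the case for the lower line of 1081 higher and 641 lower genes. The fitted fold change of such a gene depends on the lanes used. Every 3T3-L1 column lay on a lane shared with a tumour line, so no lane shows the 3T3-L1 floor for epithelial genes without it.

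**Figure D2:**
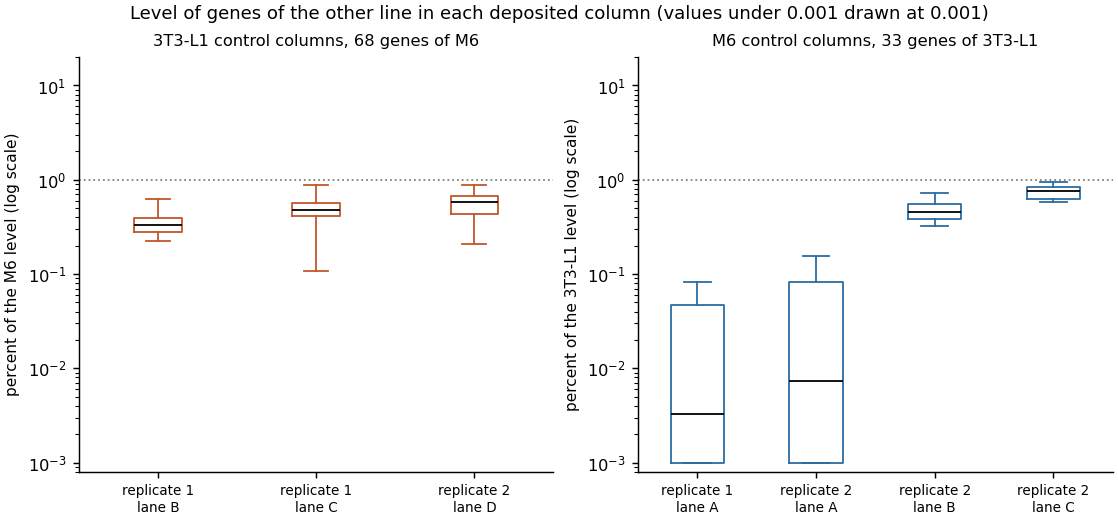
Level of genes of the other line in each deposited column, as percent of the other line's level on a log scale. Boxes span the quartiles with the median as a line, whiskers the 5th and 95th percentiles, and the dotted line marks 1%; values under 0.001 are drawn at 0.001. The genes were selected on M6 replicate 1 and on 3T3-L1 replicate 2. Medians of the M6 columns were near 0 on lane A and 0.46% and 0.757% on lanes B and C.

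The 9 fibroblast and preadipocyte markers summed to 6480 and 6010 CPM in 3T3-L1, against 40.6 and 61.3 CPM in M6, and all 9 reached 1 CPM in both 3T3-L1 libraries. The 9 mammary epithelial markers summed to 17.5 and 23.3 CPM in 3T3-L1, against 3440 and 4570 CPM in M6. Krt5, Krt14 and Trp63, used for basal epithelium, summed to 13.7 and 19.7 CPM in 3T3-L1 and to 1080 and 1850 CPM in M6. Krt14 made up nearly all of the M6 sum, whereas Trp63 was at 6.84 and 12.7 CPM in 3T3-L1 and 1.9 and 1.47 CPM in M6. Markers of mature adipocytes were near 0 in both lines, at 0.0683 and 0.0565 CPM in 3T3-L1 and 0 and 0.0876 CPM in M6, with Plin1 and Lep at 0 in all 4 libraries. Endothelial markers summed to no more than 0.468 CPM in 3T3-L1 and 0.38 CPM in M6. Immune markers reached 1.34 CPM in 3T3-L1 and 2.35 CPM in M6, with Tyrobp at 0.

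Genes of preadipocyte and fibroblast identity were higher in 3T3-L1. Of 28 tested, 23 were higher and none was lower, and the median log2 difference was 5.38, against 0.05 over all genes tested. Pdgfra, the PDGF receptor that marks adipocyte progenitors, had 224 and 326 CPM in 3T3-L1, against 17.2 and 15.8 CPM in M6 (log2 fold change 4.06, SE 0.28, edgeR adjusted p 1.47e-07). Pdgfrb, its paralogue, had 128 and 143 CPM in 3T3-L1 and 21.1 and 16.5 CPM in M6 (log2 fold change 2.85, SE 0.27). Both M6 libraries therefore kept a level of these receptors of more than 1% of that in 3T3-L1, for both genes and in both replicates. Gas1, a membrane protein induced on growth arrest, had 130 and 209 CPM in 3T3-L1 and 6.85 and 6.98 CPM in M6. Snai2, a zinc-finger repressor of E-cadherin, had 21.6 and 18 CPM in 3T3-L1 and 1.01 and 0.656 CPM in M6. Other members were at or near 0 on the M6 side: Thy1, a fibroblast surface glycoprotein, had 65.6 and 85.9 CPM in 3T3-L1, against 0 and 0.289 CPM in M6. The homeobox factor Prrx1 had 191 and 204 CPM in 3T3-L1, against 0.0621 and 1.05 CPM in M6. Tbx18, a T-box factor, gave no call, with 47.6 and 52.3 CPM in 3T3-L1 and 68.9 and 35.6 CPM in M6. Thy1, Prrx1 and Tbx18 were chosen after their values were seen. In bulk RNA, fewer expressing cells and less RNA per cell cannot be told apart, which applies to all levels given here.

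Most fibrillar collagen and matrix genes were higher in 3T3-L1, 23 of 32 tested, with 2 lower and a median log2 difference of 2.64. Col3a1, the chain of type III collagen, had 1610 and 1910 CPM in 3T3-L1, against 0 and 6.72 CPM in M6 (log2 fold change 8.99, SE 3.00, edgeR adjusted p 0.0432). Col1a1, the first chain of type I collagen, had 571 and 417 CPM in 3T3-L1, against 1.99 and 3.73 CPM in M6 (log2 fold change 7.41, SE 1.30, edgeR adjusted p 0.00155). Neither gene's ranges came near each other, and the M6 levels of both were under 1% of 3T3-L1. Col1a2 had 3630 and 2870 CPM in 3T3-L1, against 0.228 and 16.9 CPM in M6, yet it gave no call: its log2 fold change of 8.55 had a 95% interval of 1.11 to 16 (edgeR adjusted p 0.0686). When M6 replicate 2 was taken from its lane A column alone, its edgeR adjusted p was 0.0123. With the M6 knockdown also from lane A and the M27H4 libraries left out, a setting chosen after seeing the data, its edgeR adjusted p was 4.49e-06. Fbln1, a fibulin of elastic matrix, had 71.5 and 61.9 CPM in 3T3-L1 and 0.973 and 1.61 CPM in M6. Fbn1, the microfibril protein fibrillin 1, had 781 and 393 CPM in 3T3-L1 and 46.7 and 33.1 CPM in M6. Sparc, a collagen-binding matricellular protein, had 1070 and 1200 CPM in 3T3-L1, against 123 and 166 CPM in M6, so that M6 held an appreciable level of this gene. Fbln2, which was among the most abundant genes higher in 3T3-L1, had 2290 and 1360 CPM there and 424 and 481 CPM in M6 (log2 fold change 2.01, SE 0.27). Fibronectin, Fn1, gave no call at 608 and 382 CPM in 3T3-L1 and 708 and 242 CPM in M6 and was chosen after its values were seen.

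The enzymes that process and crosslink collagen divided. Of 20 tested, 14 were higher and 5 lower in 3T3-L1, with a median log2 difference of 1.5. Lox, lysyl oxidase, had 546 and 702 CPM in 3T3-L1, against 1.3 and 3.34 CPM in M6 (log2 fold change 8.04, SE 0.63, edgeR adjusted p 7.5e-07). Loxl3, a related oxidase, had 236 and 205 CPM in 3T3-L1 and 15.6 and 17.1 CPM in M6. P3h1, a prolyl 3-hydroxylase, had 79.6 and 100 CPM in 3T3-L1 and 8.76 and 12.3 CPM in M6, and Serpinh1, the collagen chaperone HSP47, had 1550 and 1820 CPM in 3T3-L1 and 165 and 221 CPM in M6. Bmp1, the procollagen C-proteinase, went the other way: 131 and 115 CPM in 3T3-L1, against 634 and 577 CPM in M6 (log2 fold change -2.31, SE 0.18, edgeR adjusted p 4.24e-07). P3h2, another prolyl 3-hydroxylase, was also lower, at 0.901 and 0.832 CPM in 3T3-L1 and 16.6 and 18.7 CPM in M6; it was chosen after its values were seen.

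Regulators and markers of the mesenchymal state were mostly higher in 3T3-L1, 19 of 27 tested, with 2 lower and a median log2 difference of 2.35. Zeb1 had 44.4 and 45.9 CPM in 3T3-L1, against 1.43 and 1.89 CPM in M6 (log2 fold change 4.75, SE 0.26, edgeR adjusted p 2.75e-08). Zeb2 had 61.5 and 49.6 CPM in 3T3-L1, against 5.18 and 3.61 CPM in M6 (log2 fold change 3.67, SE 0.29, edgeR adjusted p 4.56e-07). Neither repressor was absent from M6 in either replicate, and both M6 levels lay above 1% of 3T3-L1. Vimentin, the intermediate filament of mesenchymal cells, was present in both lines: Vim had 1560 and 1540 CPM in 3T3-L1 and 377 and 482 CPM in M6 (log2 fold change 1.85, SE 0.22). Cdh2, N-cadherin, had 102 and 74.6 CPM in 3T3-L1 and 25.9 and 19.3 CPM in M6 (log2 fold change 1.97, SE 0.42). Cd248, endosialin, a pericyte and fibroblast surface protein, had 56.1 and 52.2 CPM in 3T3-L1 and 0.455 and 0.75 CPM in M6. The 2 lower members were Nt5e, the ecto-nucleotidase CD73, with 1.18 and 2.4 CPM in 3T3-L1 and 314 and 259 CPM in M6, and Itgb3, an integrin chain, with 20.4 and 22.8 CPM in 3T3-L1 and 148 and 92.1 CPM in M6. Snai1, the repressor Snail, gave no call at 5.49 and 5.35 CPM in 3T3-L1 and 5.4 and 6.08 CPM in M6. Itgb3 and Snai1 were chosen after their values were seen.

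All 32 epithelial junction and identity genes tested were lower in 3T3-L1, with a median log2 difference of -7.35, and for 25 of them 3T3-L1 was under 1% of M6. Cdh1, E-cadherin, had 1.99 and 2.72 CPM in 3T3-L1, against 750 and 472 CPM in M6 (log2 fold change -8.02, SE 0.45, edgeR adjusted p 3.06e-08). Epcam, an epithelial adhesion molecule, had 3.24 and 2.9 CPM in 3T3-L1, against 624 and 837 CPM in M6 (log2 fold change -7.89, SE 2.06, edgeR adjusted p 0.0151). Cxadr, a tight junction receptor, had 2.75 and 2.54 CPM in 3T3-L1, against 476 and 356 CPM in M6 (log2 fold change -7.30, SE 0.24, edgeR adjusted p 1.18e-09). In 3T3-L1 all 3 genes lay under 1% of M6, and all 3 are among the 68 genes selected for the measure of carry-over above. Spint1, an inhibitor of the epithelial protease matriptase, had 0.36 and 0.412 CPM in 3T3-L1 and 135 and 116 CPM in M6. Perp, a desmosome protein, had 2.36 and 3.06 CPM in 3T3-L1 and 500 and 555 CPM in M6, and Evpl, envoplakin of the desmosome, had 0.555 and 0.945 CPM in 3T3-L1 and 54.1 and 41.7 CPM in M6. A few members were not restricted to M6. Jup, plakoglobin, which serves both desmosomes and adherens junctions, had 28.3 and 29.5 CPM in 3T3-L1 and 407 and 410 CPM in M6. Llgl2, a polarity protein, had 9.28 and 9.89 CPM in 3T3-L1 and 18 and 17.3 CPM in M6. Jup and Llgl2 were chosen after their values were seen.

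Zeb proteins are known to bind paired E-boxes, and the promoter windows of these genes were searched for the motif. The windows, from RefSeq on GRCm38.p6, run from 250 bases before to 50 bases after the annotated start. They were searched for CAGGTG, which on the other strand reads CACCTG. Of the 32 junction genes, 19 had a window and 15 of these held the motif (78.9%), as did 6 of 8 keratins (75%) and 7 of 12 epithelial regulators (58.3%). It was found in 20.2% of all 32851 windows and in 21.7% of 12542 tested genes with one. Among called genes it was in 18.1% of those higher in 3T3-L1 and in 28.4% of those lower. Preadipocyte genes held it in 1 of 16 and collagen and matrix genes in 4 of 24. At least 2 matches stood in 10 of 19 junction genes (52.6%), 3 of 12 epithelial regulators and 0 of 8 keratins, against 3.17% of the tested genes with a window. These are descriptions of letters in a window and no measure of binding. The windows of Epcam and Cldn4, with 2 matches each, and of Krt18, with 1, are shown for the number and position of matches, with the motif in capitals. They lie at chr17:87635729-87636028 on the plus strand, chr5:134946885-134947184 on the minus strand and chr15:102027966-102028265 on the plus strand. Cldn4, a tight junction claudin, had 1.74 and 3.38 CPM in 3T3-L1, against 267 and 459 CPM in M6 and was chosen after its values were seen.
Epcam: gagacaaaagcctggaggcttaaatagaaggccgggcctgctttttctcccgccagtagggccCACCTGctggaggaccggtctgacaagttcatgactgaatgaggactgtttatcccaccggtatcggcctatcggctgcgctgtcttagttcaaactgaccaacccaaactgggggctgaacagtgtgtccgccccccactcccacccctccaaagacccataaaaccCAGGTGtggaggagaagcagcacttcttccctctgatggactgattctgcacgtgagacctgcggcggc
Cldn4: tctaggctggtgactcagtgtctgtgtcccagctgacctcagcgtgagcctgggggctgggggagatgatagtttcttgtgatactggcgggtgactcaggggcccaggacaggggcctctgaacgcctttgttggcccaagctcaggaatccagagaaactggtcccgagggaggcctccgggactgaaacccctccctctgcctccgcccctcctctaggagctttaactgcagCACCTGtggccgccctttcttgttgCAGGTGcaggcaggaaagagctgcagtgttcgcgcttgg
Krt18: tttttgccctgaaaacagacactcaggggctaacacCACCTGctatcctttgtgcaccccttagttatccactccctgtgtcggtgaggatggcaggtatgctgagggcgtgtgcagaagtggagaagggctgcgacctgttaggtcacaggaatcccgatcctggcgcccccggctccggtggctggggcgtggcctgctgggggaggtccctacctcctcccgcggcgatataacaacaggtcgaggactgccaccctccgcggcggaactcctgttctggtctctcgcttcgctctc

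Of 23 epithelial transcription and splicing regulators tested, 15 were lower in 3T3-L1 and 1 was higher, with a median log2 difference of -4.67. Esrp1 had 0.378 and 0.565 CPM in 3T3-L1, against 122 and 106 CPM in M6 (log2 fold change -7.93, SE 1.44, edgeR adjusted p 0.00195). Esrp2 had 0.319 and 0.291 CPM in 3T3-L1, against 65.9 and 58.8 CPM in M6 (log2 fold change -7.67, SE 0.32, edgeR adjusted p 3.62e-09). Both splicing factors were thus under 1% of M6 in both 3T3-L1 libraries. Esrp2-as, listed as 1810019D21Rik, had 0.25 and 0.355 CPM in 3T3-L1, against 2.96 and 2.42 CPM in M6 (log2 fold change -3.16, SE 0.57, edgeR adjusted p 7.55e-04). The 3T3-L1 control columns shared their lanes with Esrp2-as-overexpressing 3T3-L1 libraries, which held 45.8 and 35.5 CPM of it. Although above 1% of M6, the level of Esrp2-as in 3T3-L1 controls may therefore be carry-over from those libraries, which was not tested. The antisense gene overlaps Esrp2, and as the strand setting of the counting is not given in the sources used here, reads of these 2 genes may be split uncertainly. Elf3, an epithelial ETS factor, had 0.118 and 0.0808 CPM in 3T3-L1 and 19.8 and 18.9 CPM in M6. Grhl1, a grainyhead factor, had 0.669 and 0.501 CPM in 3T3-L1 and 18.9 and 11.1 CPM in M6. The higher member was Trp63, the p53 relative of basal epithelium, with 6.84 and 12.7 CPM in 3T3-L1 and 1.9 and 1.47 CPM in M6 (log2 fold change 2.55, SE 0.50), chosen after its values were seen.

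Keratins were lower in 3T3-L1 in 12 of 16 tested, and 1 was higher (median log2 difference -6.43). Krt18, a type I keratin of simple epithelia, had 4.42 and 6.36 CPM in 3T3-L1, against 752 and 1240 CPM in M6 (log2 fold change -7.53, SE 0.45, edgeR adjusted p 4.63e-08). Krt8, its type II partner, had 3.91 and 6.07 CPM in 3T3-L1, against 658 and 1120 CPM in M6 (log2 fold change -7.48, SE 0.69). M6 held simple and basal keratins together: Krt14, of basal cells, had 6.77 and 6.86 CPM in 3T3-L1 and 1080 and 1840 CPM in M6, whereas its usual partner Krt5 was at 0.0501 and 0.0565 CPM in 3T3-L1 and 2.94 and 4.02 CPM in M6. Krt16, of stressed epidermis, had 0.742 and 0.59 CPM in 3T3-L1 and 19.6 and 18.6 CPM in M6. Krt13, of stratified mucosa, was the higher one, with 1.26 and 1.46 CPM in 3T3-L1 and 0 and 0.0584 CPM in M6. Krt13 and Krt14 were chosen after their values were seen, and counts of near-identical keratins may be shared between them.

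Luminal and milk genes were lower in 3T3-L1 in 11 of 20 tested and higher in 1, with a median log2 difference of -4.78. Cd24a, a glycosylated surface protein used to sort mammary epithelium, had 18.9 and 17 CPM in 3T3-L1, against 747 and 889 CPM in M6 (log2 fold change -5.51, SE 0.22, edgeR adjusted p 3.27e-09). Areg, the EGF receptor ligand amphiregulin, had 0.451 and 0.549 CPM in 3T3-L1 and 12.7 and 9.86 CPM in M6. Cd14, a lipopolysaccharide co-receptor, had 9.56 and 10.7 CPM in 3T3-L1 and 132 CPM in both M6 libraries. Xdh, xanthine oxidoreductase, needed for milk fat secretion, was higher: 165 and 194 CPM in 3T3-L1 and 3.89 and 5.36 CPM in M6. Esr1, the oestrogen receptor, had 0.132 and 0.299 CPM in 3T3-L1 and 7.91 and 6.17 CPM in M6 and was chosen after its values were seen. Basal and myoepithelial genes divided, with 7 of 22 tested higher and 11 lower (median -1.51). Itgb4, the integrin chain of hemidesmosomes, had 0.323 and 0.735 CPM in 3T3-L1 and 116 and 59.9 CPM in M6. Lamb3, a chain of laminin 332, had 1.91 and 2.83 CPM in 3T3-L1 and 359 and 268 CPM in M6, and Jag2, a Notch ligand, had 0.687 and 0.872 CPM in 3T3-L1 and 32.9 and 30.6 CPM in M6. Procr, the protein C receptor, was higher, with 29.9 and 27.5 CPM in 3T3-L1 and 2.13 and 3.5 CPM in M6.

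**Figure D3:**
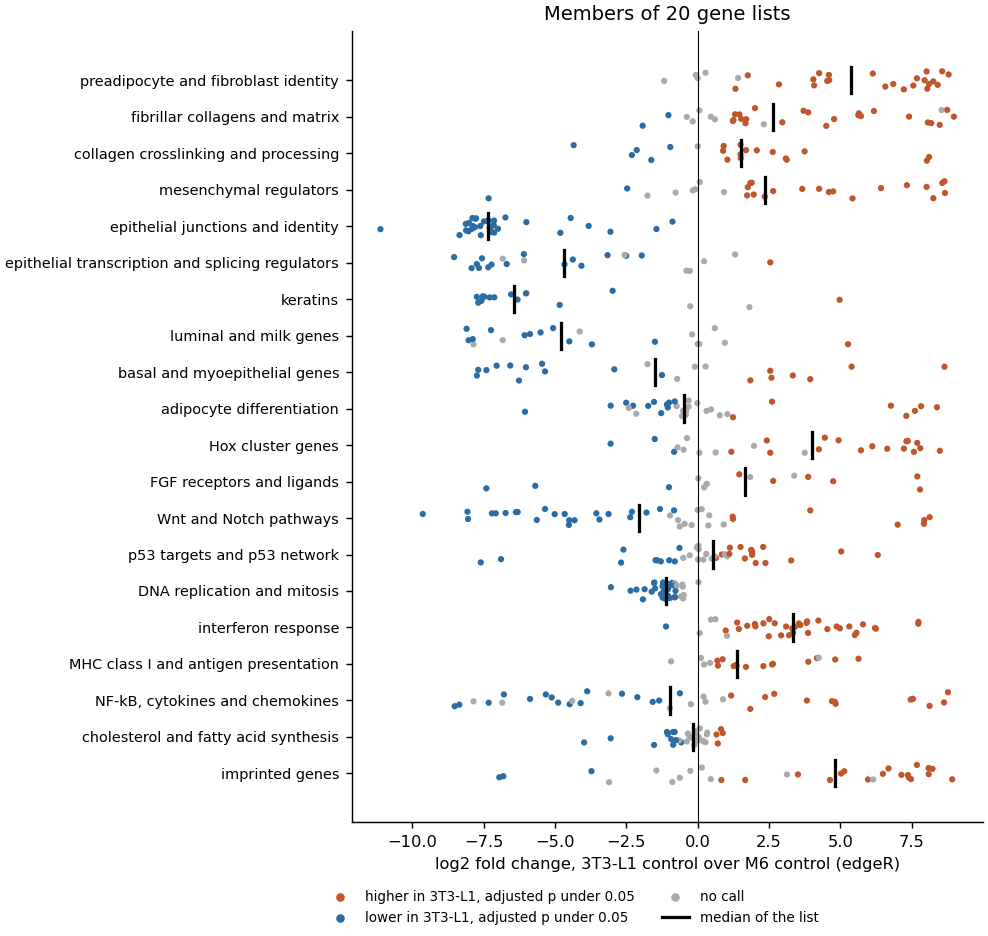
Log2 fold change of 3T3-L1 control over M6 control (x axis, edgeR) for the tested members of 20 gene lists, a point for each gene, with the median of each list as a black bar. Colour shows higher, lower or no call at an adjusted p under 0.05. All 32 junction genes lie below 0 and 23 of 28 preadipocyte genes are called above 0.

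Adipocyte genes showed no common direction: of 32 tested, 7 were higher (21.9%) and 11 lower (34.4%) in 3T3-L1, with a median log2 difference of -0.46. Over all genes tested, 20.5% were higher and 18.9% lower. Pparg, the nuclear receptor that drives fat cell differentiation, had 21.3 and 21 CPM in 3T3-L1, against 3.21 and 3.72 CPM in M6 (log2 fold change 2.61, SE 0.36, edgeR adjusted p 6.8e-05). Cebpa, its partner factor, gave no call, with 2.55 and 3.51 CPM in 3T3-L1 and 1.72 and 1.8 CPM in M6 (edgeR adjusted p 0.115). The early B-cell factor Ebf1, which acts in adipogenesis, had 23.3 and 15.8 CPM in 3T3-L1 and 0.0621 and 0.114 CPM in M6. Lpl, lipoprotein lipase, had 82.1 and 119 CPM in 3T3-L1 and 0.207 and 0.584 CPM in M6 (log2 fold change 7.84, SE 0.75), and Gata2, a factor of preadipocytes, had 3.1 and 3.62 CPM in 3T3-L1 and 0 and 0.0389 CPM in M6. Scd1, stearoyl-CoA desaturase of lipid synthesis, was lower: it had 127 and 109 CPM in 3T3-L1 and 939 and 1010 CPM in M6 (log2 fold change -3.05, SE 0.20, edgeR adjusted p 9.53e-08). Fabp4, the fatty acid binding protein of fat cells, was at 1.82 and 2.74 CPM in 3T3-L1 and 1.57 and 2.08 CPM in M6 with no call, and was chosen after its values were seen. Of 33 cholesterol and fatty acid synthesis genes, 4 were higher (12.1%) and 11 lower (33.3%), with a median of -0.17. Srebf1, the lipogenic regulator, had 54.8 and 51.8 CPM in 3T3-L1 and 156 and 152 CPM in M6, and Scd2 had 661 and 612 CPM in 3T3-L1 and 1170 and 1250 CPM in M6. 

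Hox genes, which record position along the body axis, were mostly higher in 3T3-L1. Of 26 tested, 16 were higher and 3 lower in 3T3-L1, and the median log2 difference was 4.0. Hoxa7 had 19.9 and 20.3 CPM in 3T3-L1 and 0 and 0.149 CPM in M6, Hoxd9 had 6.5 and 7.49 CPM in 3T3-L1 and 0 and 0.0617 CPM in M6, and Hoxc13 had 2.02 and 1.95 CPM in 3T3-L1 and 0 and 0.00974 CPM in M6. These M6 values were at or under 1% of 3T3-L1. Hoxb6 had 1.07 and 0.678 CPM in 3T3-L1 and 0 and 0.0195 CPM in M6. The lower members were Hoxb3, with 2.05 and 2.2 CPM in 3T3-L1 and 6.79 and 5.3 CPM in M6, Hoxb4, with 5.23 and 4.68 CPM in 3T3-L1 and 7.78 and 9.76 CPM in M6, and Hoxc5, with 0.0956 and 0.0485 CPM in 3T3-L1 and 0.373 and 0.837 CPM in M6. Hoxb3, Hoxb4 and Hoxc5 were chosen after their values were seen.

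Among integrin and laminin chains, 14 of 30 tested were lower in 3T3-L1 (46.7%) and 4 were higher (13.3%), with a median log2 difference of -0.33. The shares over all genes tested were 18.9% lower and 20.5% higher. Itga7, a laminin-binding chain, had 2.01 and 2.18 CPM in 3T3-L1 and 37.3 and 40.1 CPM in M6 (log2 fold change -4.21, SE 0.20, edgeR adjusted p 1.13e-08). Itgb6 and Itgb8, epithelial chains that activate latent TGF-beta, followed: Itgb6 had 0.0865 and 0.242 CPM in 3T3-L1 and 31.2 and 22.9 CPM in M6, and Itgb8 had 0.737 and 1.13 CPM in 3T3-L1 and 90.6 and 43 CPM in M6. Of 28 matrix proteases and inhibitors, 14 were higher and 9 lower (median 0.88). Adamts5, an aggrecanase, had 165 and 177 CPM in 3T3-L1 and 5.88 and 4.45 CPM in M6. Timp3, a metalloprotease inhibitor, had 13.7 and 7.64 CPM in 3T3-L1 and 258 and 200 CPM in M6. Adam12, a disintegrin metalloprotease, had 7.14 and 3.33 CPM in 3T3-L1 and 153 and 138 CPM in M6, and Mmp15, a membrane-bound one, had 0.328 and 0.129 CPM in 3T3-L1 and 15.3 and 11.7 CPM in M6. Mmp2, gelatinase A, had 320 and 432 CPM in 3T3-L1 and 1.59 and 2.97 CPM in M6, whereas Mmp13, a collagenase, had 1.16 and 1.3 CPM in 3T3-L1 and 403 and 119 CPM in M6. Mmp2 and Mmp13 were chosen after their values were seen.

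Ligands of growth factor receptors were mostly higher in 3T3-L1, 15 of 27 tested (55.6%), with 6 lower (22.2%, median 1.55). The shares over all genes tested were 20.5% higher and 18.9% lower. Ptn, pleiotrophin, a heparin-binding growth factor, had 971 and 1930 CPM in 3T3-L1, against 0 and 4.97 CPM in M6 (log2 fold change 9.13, SE 2.37, edgeR adjusted p 0.0149). Its M6 level was 0.171% of that in 3T3-L1 and may be carry-over, and with M6 replicate 2 from lane A alone the fitted log2 fold change was 20.53, against an M6 level near 0. Hgf, hepatocyte growth factor, which fibroblasts make for epithelial cells, had 40.7 and 47.3 CPM in 3T3-L1 and 3.04 and 2.66 CPM in M6 (log2 fold change 3.95, SE 0.26). Vegfd had 29.6 and 46.2 CPM in 3T3-L1 and 0.228 and 0.289 CPM in M6. Tgfa, an EGF receptor ligand, was lower, at 2.71 and 2.32 CPM in 3T3-L1 and 53.2 and 41.3 CPM in M6 (log2 fold change -4.23, SE 0.23, edgeR adjusted p 2.34e-08). The receptor kinases were called in both directions in nearly equal number, 13 higher and 15 lower of 31 tested (median 0.02). Erbb3, a neuregulin receptor, had 0.523 and 0.872 CPM in 3T3-L1 and 151 and 115 CPM in M6 (log2 fold change -7.59, SE 0.31). Mertk, a receptor for apoptotic cells through Gas6, had 3.22 and 7.39 CPM in 3T3-L1 and 0.0621 and 0.0909 CPM in M6. Met, the Hgf receptor, had 79.9 and 61.4 CPM in 3T3-L1 and 283 and 215 CPM in M6, so that receptor and ligand were highest in different lines. Egfr had 16.2 and 17.1 CPM in 3T3-L1 and 173 and 79.7 CPM in M6. Met and Egfr were chosen after their values were seen.

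In the FGF family, 6 of 14 tested were higher in 3T3-L1 (42.9%) and 3 lower (21.4%), with a median of 1.65. The share lower was near that over all genes tested, 18.9%, and 20.5% of all genes were higher. Fgf7 and Fgf10 are mesenchymal ligands of the epithelial IIIb form of Fgfr2. Fgf7 had 149 and 158 CPM in 3T3-L1, against 0.393 and 0.896 CPM in M6 (log2 fold change 7.80, SE 0.57, edgeR adjusted p 3.34e-07). Fgf10 had 5.08 and 5.81 CPM in 3T3-L1 and 0 and 0.0325 CPM in M6. Both ligands in M6 were under 1% of 3T3-L1. Fgfr2 itself had 18.1 and 48 CPM in 3T3-L1, against 2.71 and 1.83 CPM in M6 (log2 fold change 3.88, SE 0.51, edgeR adjusted p 4.75e-05). Fgfr1 had 69.9 and 65.2 CPM in 3T3-L1, against 155 and 116 CPM in M6 (log2 fold change -1.0, SE 0.21, edgeR adjusted p 0.00185). The 2 receptors thus differed in opposite directions without overlap of the replicates. Spry1, a feedback inhibitor of receptor kinase signalling, had 27.5 and 34 CPM in 3T3-L1 and 5.32 and 4.52 CPM in M6.

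Wnt and Notch pathway genes were lower in 3T3-L1 in 23 of 40 tested (57.5%) and higher in 7 (17.5%, median -2.05). The shares over all genes tested were 18.9% lower and 20.5% higher. Wnt5b had 0.341 and 0.404 CPM in 3T3-L1 and 30.8 and 28.2 CPM in M6, and the receptor Fzd6 had 0.701 and 1.53 CPM in 3T3-L1 and 156 and 142 CPM in M6. The ligand Wnt5a was higher, with 37.1 and 32.9 CPM in 3T3-L1 and 0 and 0.208 CPM in M6. All 4 Notch receptors were lower in 3T3-L1. Notch3 had 3.01 and 3.03 CPM in 3T3-L1 and 125 and 70.2 CPM in M6, and Notch1 had 9.69 and 10.2 CPM in 3T3-L1 and 145 and 71.5 CPM in M6. The Notch target Hey1 had 1.14 and 0.872 CPM in 3T3-L1 and 75.9 and 91.3 CPM in M6, and Dtx1, a Notch-binding ubiquitin ligase, had 0.041 and 0 CPM in 3T3-L1 and 17.7 and 12.4 CPM in M6 (log2 fold change -9.22, SE 0.99). Wnt5a, Notch1 and Hey1 were chosen after their values were seen. TGF-beta and BMP pathway genes were called in both directions, 13 higher and 14 lower of 37 (median -0.38). Tgfbr3, the co-receptor betaglycan, had 136 and 109 CPM in 3T3-L1 and 5.53 and 3.28 CPM in M6. Inhba, an activin subunit, had 11.5 and 7.67 CPM in 3T3-L1 and 134 and 82.9 CPM in M6, and Fstl3, an activin antagonist, had 0.0728 and 0.121 CPM in 3T3-L1 and 7.52 and 9.24 CPM in M6.

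Mdm2, the ubiquitin ligase that degrades p53 and is itself a p53 target, was among the most abundant genes higher in 3T3-L1. It had 5930 and 5110 CPM in 3T3-L1, against 71.1 and 67.3 CPM in M6 (log2 fold change 6.32, SE 0.33, edgeR adjusted p 1.84e-08), a 79.7-fold difference of means. Scaled to column totals, the M6 replicate 2 columns held 31.8, 47.8 and 92 CPM on lanes A, B and C, and replicate 1 held 77 CPM on lane A. Part of the replicate 2 level may be carry-over, which was not tested. With M6 replicate 2 from lane A alone the log2 fold change was 6.76 (SE 0.44). Trp53, which encodes p53, gave no call, with 54.2 and 40 CPM in 3T3-L1 and 28.5 and 34 CPM in M6 (edgeR adjusted p 0.0597). Trp53 was called with M6 replicate 2 from lane A alone (log2 fold change 0.71, edgeR adjusted p 0.0221). It was also called between overexpression and knockdown libraries (log2 fold change 0.98, edgeR adjusted p 0.00499). Of 38 p53 targets and network genes, 16 were higher (42.1%) and 10 lower (26.3%) in 3T3-L1 (median 0.55). The shares over all genes tested were 20.5% and 18.9%. Eda2r, a death receptor, had 85.4 and 85.8 CPM in 3T3-L1 and 2.36 and 2.84 CPM in M6, and Sesn2, a stress sensor, had 99.1 and 95 CPM in 3T3-L1 and 8.88 and 11.1 CPM in M6. Cdkn1a, the cell cycle inhibitor p21, had 16.7 and 25.3 CPM in 3T3-L1 and 4.6 and 3.96 CPM in M6 (log2 fold change 2.30, SE 0.44). Ccng1, cyclin G1, had 513 and 469 CPM in 3T3-L1 and 85.8 and 103 CPM in M6. Perp, in the epithelial list as well, and Pmaip1, the cell death protein Noxa, were lower: Pmaip1 had 0.0501 and 0.234 CPM in 3T3-L1 and 19.2 and 12.8 CPM in M6. Cdkn2a, the locus of p16 and p19ARF, had 143 and 221 CPM in 3T3-L1 and 76.5 and 91.7 CPM in M6 (log2 fold change 1.11, SE 0.32, edgeR adjusted p 0.0143). Rb1 had 10 and 9.86 CPM in 3T3-L1 and 88.8 and 39.1 CPM in M6. Cdkn1a, Ccng1, Pmaip1 and Rb1 were chosen after their values were seen.

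Genes around Mdm2 on chromosome 10 were then set beside it. Mdm2 spans chr10:117688875-117710758 on the minus strand of GRCm38. Slc35e3, a putative nucleotide sugar transporter whose annotated start lies 44.8 kb further along the chromosome, had 812 and 839 CPM in 3T3-L1, against 22.4 and 22 CPM in M6 (log2 fold change 5.22, SE 0.37, edgeR adjusted p 1.77e-07). The next gene listed, Nup107, 61.7 kb away, gave no call at 124 and 83.2 CPM in 3T3-L1 and 82.8 and 97.4 CPM in M6. Rap1b, at 125 kb, had 157 and 158 CPM in 3T3-L1 and 92.9 and 89.9 CPM in M6 (log2 fold change 0.78, SE 0.20). On the other side, Cpsf6 gave no call at 168 and 124 CPM in 3T3-L1 and 229 and 188 CPM in M6, and Frs2 had 28.3 and 28.2 CPM in 3T3-L1 and 20.7 and 14.5 CPM in M6 (log2 fold change 0.69, SE 0.22). Only protein-coding genes with at least 5 CPM in a line were listed. The large difference was found for Mdm2 and Slc35e3 and for none of the other 10 genes listed within this neighbourhood. Genes under that level were left out, such as Lyz2, which starts at chr10:117277331. It had 1.65 and 1.67 CPM in 3T3-L1 and 0 CPM in both M6 libraries (log2 fold change 10.92, SE 1.38). These neighbours were chosen after their values were seen.

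**Figure D4:**
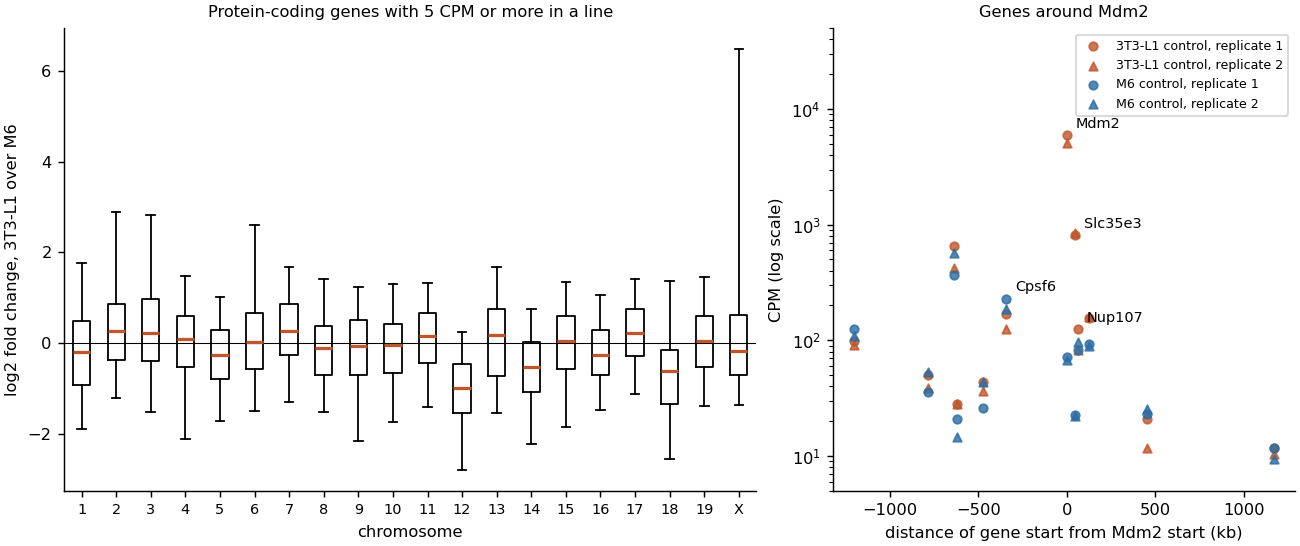
Left, log2 fold change of 3T3-L1 control over M6 control for 10932 protein-coding genes with at least 5 CPM in a line, by chromosome; boxes span the quartiles with the median in orange, and whiskers the 10th and 90th percentiles. Right, CPM of each library on a log scale for 12 protein-coding genes with at least 5 CPM in a line, by distance of the gene start from that of Mdm2 in kb. The median was -0.98 on chromosome 12, and Mdm2 and Slc35e3 stand apart from the neighbours drawn.

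Protein-coding genes with at least 5 CPM in a line showed an uneven distribution over chromosomes. Over all 10932 of them, the median log2 difference was -0.01, with 22.4% higher and 24.6% lower in 3T3-L1. On chromosome 12, 251 of 378 genes were lower in 3T3-L1 (66.4%) and 22 were higher (5.82%), with a median of -0.98. Chromosome 18 had a median of -0.61 with 49.1% lower, and chromosome 14 a median of -0.51 with 42.9% lower. The highest medians were 0.28 on chromosome 7 and 0.26 on chromosome 2. The chromosomes are described after their values were seen and were not tested. Between overexpression and knockdown libraries of the same lines, the medians of chromosomes 12, 18 and 14 were -0.96, -0.62 and -0.52.

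Replication and mitosis genes were lower in 3T3-L1 in 33 of 42 tested, with none higher and a median log2 difference of -1.10. Cenpf, a centromere protein of late cell cycle, had 31.6 and 23.4 CPM in 3T3-L1 and 322 and 131 CPM in M6 (log2 fold change -3.04, SE 0.40, edgeR adjusted p 4.83e-05). Ccnb2, a mitotic cyclin, had 48.4 and 36.4 CPM in 3T3-L1 and 158 and 218 CPM in M6. Gins2, of the replicative helicase, had 23.5 CPM in both 3T3-L1 libraries and 57.6 and 76.9 CPM in M6, and Cenpa, the centromeric histone, had 37.7 and 30.1 CPM in 3T3-L1 and 104 and 142 CPM in M6. The replicates of the lines did not overlap for any of these genes. Mki67, the Ki-67 antigen, had 125 and 60.6 CPM in 3T3-L1 and 676 and 270 CPM in M6 and was chosen after its values were seen. Nras, a Ras GTPase, was among the most abundant genes lower in 3T3-L1, with 164 CPM in both 3T3-L1 libraries and 2300 and 2190 CPM in M6 (log2 fold change -3.77, SE 0.30, edgeR adjusted p 5.38e-07).

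Genes of the interferon response were higher in 3T3-L1 in 33 of 38 tested, and 1 was lower, with a median log2 difference of 3.33. Ifit3, an antiviral tetratricopeptide protein, had 478 and 560 CPM in 3T3-L1, against 2.67 and 2.2 CPM in M6 (log2 fold change 7.74, SE 0.48, edgeR adjusted p 6.39e-08). Ifit3b, a near-identical neighbour whose counts may be shared with Ifit3, had 210 and 262 CPM in 3T3-L1 and 1.1 and 1.11 CPM in M6. Stat2, of the interferon-activated transcription complex, had 130 and 160 CPM in 3T3-L1 and 19.2 and 14.5 CPM in M6 (log2 fold change 3.10, SE 0.25). Cmpk2, a mitochondrial nucleotide kinase, had 104 and 90.1 CPM in 3T3-L1 and 2.75 and 0.879 CPM in M6. Isg15, a ubiquitin-like modifier, had 109 and 175 CPM in 3T3-L1 and 16 and 7.5 CPM in M6. The 1 lower member was Ifi27, with 22.1 and 22.5 CPM in 3T3-L1 and 55.7 and 40.7 CPM in M6. Isg15 and Ifi27 were chosen after their values were seen. Interferon-stimulated response elements contain GAAA, any 2 bases and GAAA again, which reads TTTC, 2 bases and TTTC on the other strand. That motif stood in 15 of 27 interferon genes with a window (55.6%), against 3.82% of all tested genes with one and 3.44% of all windows. It was in 5.88% of genes called higher and 3.24% of genes called lower. The windows of Ifit3 at chr19:34583279-34583578 on the plus strand and Isg15 at chr4:156200769-156201068 on the minus strand are shown for the number and spacing of matches, in capitals; those of Isg15 overlap each other.
Ifit3: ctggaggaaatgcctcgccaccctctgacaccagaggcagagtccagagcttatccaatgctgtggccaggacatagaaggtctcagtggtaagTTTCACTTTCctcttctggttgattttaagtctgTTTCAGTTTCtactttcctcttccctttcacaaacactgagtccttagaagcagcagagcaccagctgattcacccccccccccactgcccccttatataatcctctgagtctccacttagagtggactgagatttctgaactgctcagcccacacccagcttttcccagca
Isg15: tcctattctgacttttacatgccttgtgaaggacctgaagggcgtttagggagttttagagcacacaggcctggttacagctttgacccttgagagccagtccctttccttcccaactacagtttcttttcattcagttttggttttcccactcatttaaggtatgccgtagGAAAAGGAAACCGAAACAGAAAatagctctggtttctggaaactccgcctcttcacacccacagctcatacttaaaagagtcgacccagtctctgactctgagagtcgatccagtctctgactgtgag

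Antigen presentation by MHC class I followed the same direction, with 14 of 19 tested higher in 3T3-L1 and none lower (median 1.36). B2m, the light chain, had 2050 and 2040 CPM in 3T3-L1, against 280 and 377 CPM in M6 (log2 fold change 2.64, SE 0.26, edgeR adjusted p 3.18e-06). Nlrc5, the transactivator of class I genes, had 48.1 and 49.9 CPM in 3T3-L1 and 1.14 and 0.857 CPM in M6. Tap1, of the peptide transporter, had 143 and 159 CPM in 3T3-L1 and 24.3 and 25.2 CPM in M6. H2-M3 had 36.1 and 41.3 CPM in 3T3-L1 and 1.76 and 3.41 CPM in M6, and Cd274, the checkpoint ligand PD-L1, had 15.5 and 10.8 CPM in 3T3-L1 and 0.683 and 0.759 CPM in M6. Class I heavy chains are similar to each other, so their counts may be shared.

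Inflammatory genes were called in both directions, 14 higher and 16 lower of 39 tested (median -0.97). Cxcl5, a neutrophil chemokine, had 51.1 and 78.9 CPM in 3T3-L1, against 2100 and 1750 CPM in M6 (log2 fold change -4.89, SE 1.27, edgeR adjusted p 0.0131). Tnf had 0.132 and 0.105 CPM in 3T3-L1 and 60.2 and 28.6 CPM in M6 (log2 fold change -8.52, SE 0.59), and Cxcl16, a transmembrane chemokine, had 2.19 and 2.07 CPM in 3T3-L1 and 67.6 and 80.3 CPM in M6. Icam1, an adhesion receptor for leukocytes, had 0.246 and 0.186 CPM in 3T3-L1 and 9.56 and 7.93 CPM in M6. In the other direction, Ptges, prostaglandin E synthase, had 54.9 and 72.4 CPM in 3T3-L1 and 1.26 and 3.48 CPM in M6. Cxcl12, the stromal chemokine, had 377 and 370 CPM in 3T3-L1 and 0.911 and 3.17 CPM in M6, and Ccl2, a monocyte chemokine, had 371 and 305 CPM in 3T3-L1 and 12.7 and 11.3 CPM in M6. Cxcl12 and Ccl2 were chosen after their values were seen.

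Hypoxia and glycolysis genes gave 5 higher and 8 lower of 30 tested in 3T3-L1 (16.7% and 26.7%, median 0.03). Detoxification genes gave 12 higher and 7 lower of 41 (29.3% and 17.1%, median 0.61). Both lists lay near the share over all genes tested, 20.5% higher and 18.9% lower. Car12, a carbonic anhydrase, had 2.69 and 1.49 CPM in 3T3-L1 and 315 and 269 CPM in M6 (log2 fold change -7.12, SE 0.39, edgeR adjusted p 2.53e-08). Pfkp, the platelet form of phosphofructokinase, had 110 and 105 CPM in 3T3-L1 and 13.8 and 23.2 CPM in M6, and Aldoc, an aldolase, had 0.514 and 0.525 CPM in 3T3-L1 and 19.1 and 42.4 CPM in M6. Gstm2, a glutathione transferase, had 119 and 172 CPM in 3T3-L1 and 3.15 and 5.93 CPM in M6, and Aldh3a1, an aldehyde dehydrogenase, had 0.519 and 1.39 CPM in 3T3-L1 and 53.5 and 59.8 CPM in M6. Abcg2, a drug efflux pump, had 114 and 91.8 CPM in 3T3-L1 and 0 and 0.558 CPM in M6, and Slc7a11, the cystine transporter, had 185 and 111 CPM in 3T3-L1 and 11 and 6.77 CPM in M6. Abcg2 and Slc7a11 were chosen after their values were seen. Among other abundant genes lower in 3T3-L1, Hp, the haemoglobin-binding haptoglobin, had 10.5 and 10.6 CPM in 3T3-L1 and 2690 and 2980 CPM in M6 (log2 fold change -8.07, SE 1.28), and Sdc1, the epithelial proteoglycan syndecan 1, had 141 and 128 CPM in 3T3-L1 and 2150 and 2990 CPM in M6 (log2 fold change -4.26, SE 0.27).

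Imprinted genes were higher in 3T3-L1 in 18 of 30 tested and lower in 3, with a median log2 difference of 4.83. Kcnq1ot1, an antisense RNA expressed from the paternal allele, had 25.7 and 26.3 CPM in 3T3-L1, against 0 and 0.227 CPM in M6 (log2 fold change 7.38, SE 0.77, edgeR adjusted p 1.04e-05), where the M6 level may be carry-over. Snrpn had 12.9 and 18 CPM in 3T3-L1 and 0.0621 and 0.13 CPM in M6, and Impact had 88.4 and 118 CPM in 3T3-L1 and 10.4 and 7.65 CPM in M6. Phlda2, which lies in the domain silenced by Kcnq1ot1 and is expressed from the maternal allele, had 0.0228 and 0.0646 CPM in 3T3-L1 and 3.48 and 5.81 CPM in M6. Cdkn1c, in the same domain, had 0 and 0.0888 CPM in 3T3-L1 and 3.93 and 5.68 CPM in M6 and was chosen after its values were seen. Xist, the RNA that coats the inactive X chromosome, had 0.2 and 0.388 CPM in 3T3-L1, against 87.4 and 51 CPM in M6 (log2 fold change -7.91, SE 0.71, edgeR adjusted p 4.09e-06). Of the RNAs that regulate it, Jpx and Ftx gave no call, with Ftx at 11.5 and 10.9 CPM in 3T3-L1 and 9.23 and 8.69 CPM in M6. Of 24 long noncoding RNAs tested, 12 were higher and 2 lower in 3T3-L1 (median 1.06). Pvt1 had 24.2 and 22.4 CPM in 3T3-L1 and 5.09 and 4.77 CPM in M6, and Snhg12, a snoRNA host, had 85 and 80.5 CPM in 3T3-L1 and 13.8 and 21.2 CPM in M6.

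Among genes of at least 10 CPM in the higher line, the largest differences lay outside most of these lists. Itgbl1, a secreted integrin-like protein, had 16.4 and 50.3 CPM in 3T3-L1 and 0 and 0.0454 CPM in M6 (log2 fold change 9.83, SE 1.98, edgeR adjusted p 0.00333). Aspn, the proteoglycan asporin, had 44 and 153 CPM in 3T3-L1 and 0.166 and 0.172 CPM in M6. Ppp1r3d, a glycogen-targeting phosphatase subunit, had 10 and 19.6 CPM in 3T3-L1 and 0 and 0.0227 CPM in M6. In all of these the M6 value lay under 1% of 3T3-L1, as it did for Pcdh9, Kcnt2, Cdh26, Mrgprf and Lrrc17, which had 7.06 to 27.7 CPM in 3T3-L1 libraries. In the other direction, Klhdc7a had 0 CPM in both 3T3-L1 libraries and 36.3 and 13.5 CPM in M6 (edgeR adjusted p 0.0416). Ell3, an elongation factor, had 0.0273 and 0.0242 CPM in 3T3-L1 and 12.1 and 15.1 CPM in M6 (log2 fold change -8.98, SE 0.47, edgeR adjusted p 1.92e-08). F5, coagulation factor V, had 0.0319 and 0.0242 CPM in 3T3-L1 and 29.1 and 5.46 CPM in M6, a wide spread between the M6 replicates. Sox21, a transcription factor, had 0.0137 and 0 CPM in 3T3-L1 and 13.9 and 8.52 CPM in M6, and Cdh6, a cadherin, had 0.041 and 0.0646 CPM in 3T3-L1 and 33 and 14.7 CPM in M6.

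The same lines were also present as 2 libraries of 3T3-L1 with Esrp2-as overexpression and 2 of M6 with Esrp2-as knockdown. These libraries enter the control comparison through the choice of genes tested, the scaling factors and the pooled estimate of the spread. Between them 4247 genes were higher in 3T3-L1 (20%) and 3801 lower (17.9%). Of all calls, 6858 were made in both comparisons with the same sign, which is 82.0% of the control calls and 85.2% of the overexpression against knockdown calls. The sign was opposite for 5 genes. One of them was Esrp2-as, the manipulated RNA, with 45.8 and 35.5 CPM in overexpressing 3T3-L1 and 0.527 and 0.851 CPM in M6 after knockdown (log2 fold change 5.84, SE 0.63, edgeR adjusted p 1.09e-05). The others were S100a7a, Gm49339, Tmem86b and Mrc1, which had at most 6.08 CPM in any of these 8 libraries and were chosen after their values were seen. Esrp2 was at 0.356 and 0.32 CPM in overexpressing 3T3-L1 and 53.9 and 55.6 CPM in M6 after knockdown (log2 fold change -7.33, SE 0.31). Mdm2 was at 4610 and 5820 CPM in overexpressing 3T3-L1 and 121 and 107 CPM in M6 after knockdown (log2 fold change 5.52, SE 0.31). Zeb1 was at 56.6 and 52.3 CPM in overexpressing 3T3-L1 and 6.37 and 4.69 CPM in M6 after knockdown (log2 fold change 3.30, SE 0.24). All 32 junction genes were lower there too, and 36 of 38 interferon genes were higher.

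Transcript use within genes was compared as each transcript's share of its gene's estimated counts, with limma on the arcsine square root of the share. Of 6665 genes with at least 2 usable transcripts, 244 had a called difference (3.66%), and 1072 had an unadjusted p under 0.05. The largest difference of a gene's shares had a median of 11.7 percentage points over all tested genes and of 41.2 points over the called ones. With only the 4 compared libraries in the fit there were no calls at all, with 902 genes at an unadjusted p under 0.05, so these calls rest on the spread pooled over all groups. Of 29 ESRP targets tested, 5 were called (17.2%): Rps24, Cd44, Fgfr2, Nf2 and Slk, of which Slk was named after its values were seen. Shares come from estimated, not counted, transcripts, and intervals cover counting error only.

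Fgfr2 encodes the end of an immunoglobulin domain by mutually exclusive exons, of which epithelia use the form named IIIb. That exon is shown because its use separated the lines most widely among the exons measured in the ESRP targets below, with 12 flanking bases of the transcript in lower case and the exon in capitals. It has 148 bases and lies at chr7:130199758-130199905 on the minus strand of GRCm38.
Fgfr2 IIIb exon: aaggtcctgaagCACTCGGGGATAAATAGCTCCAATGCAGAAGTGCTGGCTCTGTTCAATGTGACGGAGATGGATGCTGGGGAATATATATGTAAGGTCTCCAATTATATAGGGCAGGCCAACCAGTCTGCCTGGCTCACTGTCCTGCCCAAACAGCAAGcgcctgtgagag
Among transcripts with this exon or the one used in its place, it was in 3.26% and 3.4% of counts in 3T3-L1, against 94.1% and 98.4% in M6. The exact 95% intervals were 2.7 to 3.9% and 2.94 to 3.91% in 3T3-L1, and 80.3 to 99.3% and 96.3 to 99.5% in M6, where only 34 and 314 counts were available. Both 3T3-L1 libraries were low and both M6 libraries high, with no overlap. Fgfr2-226, of the nonsense-mediated decay type, is outside this count and took 65.6% and 31.8% of the gene in M6 and 3.16% and 0% in 3T3-L1. Estimates of single transcripts also varied between the columns of M6 replicate 2. Fgfr2-211, which holds the exon, took 0%, 81.1% and 0% of the gene on lanes A, B and C, a spread that the intervals do not cover. Transcript shares of Fgfr2 were called by limma with an adjusted p of 0.00383, and the gene was not called when M6 replicate 2 came from lane A alone (limma adjusted p 0.163), nor in the fit of only the 4 libraries, but was called with the M27H4 libraries left out and both M6 groups from lane A (limma adjusted p 0.00863).

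Cd44, the hyaluronan receptor, can include up to 10 variable exons between its constant ends, and epithelial cells are known for the variable forms. Its summed level gave no call, with 117 and 71.2 CPM in 3T3-L1 and 117 and 91.2 CPM in M6. At least 1 variable exon was in 20.9% and 23.3% of its protein-coding counts in 3T3-L1, against 95.7% and 96.1% in M6. Cd44-203, which has none, took 72.3% and 70% in 3T3-L1 and 4.01% and 3.73% in M6 (limma adjusted p 0.00173 for the gene). Cd44-205, which holds 3 variable exons of 399 bases in sum, took 0.159% and 2.21% in 3T3-L1 and 24% and 28.9% in M6. Its 3 exons are shown in transcript order, from chr2:102834234-102834335, chr2:102832483-102832572 and chr2:102831330-102831536 on the minus strand to show the coding sequence by which the forms differ.
Cd44 variable exon of 102 bases: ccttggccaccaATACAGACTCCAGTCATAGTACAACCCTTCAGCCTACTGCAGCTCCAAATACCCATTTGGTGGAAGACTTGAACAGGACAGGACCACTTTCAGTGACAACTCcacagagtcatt
Cd44 variable exon of 90 bases: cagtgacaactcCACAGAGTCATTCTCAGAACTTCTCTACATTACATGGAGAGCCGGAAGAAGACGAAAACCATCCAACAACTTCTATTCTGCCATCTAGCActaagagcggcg
Cd44 variable exon of 207 bases: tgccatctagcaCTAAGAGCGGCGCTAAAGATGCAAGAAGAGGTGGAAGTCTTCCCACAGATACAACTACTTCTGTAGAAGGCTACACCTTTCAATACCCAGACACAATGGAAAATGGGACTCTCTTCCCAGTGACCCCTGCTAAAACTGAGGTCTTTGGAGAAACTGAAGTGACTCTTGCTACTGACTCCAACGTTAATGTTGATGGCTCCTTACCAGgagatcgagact

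Rps24, a ribosomal protein of the small subunit, is annotated with transcripts that differ in their first exon and in the exons after the coding region. Rps24-201, which ends with a final exon of 3 bases, took 33.8% and 38% of the gene in 3T3-L1, against 0.62% and 0.875% in M6 (limma adjusted p 4.04e-04). The rest was Rps24-202 in both lines. Slk, a Ste20-like kinase, has an alternative exon of 93 bases at chr19:47627648-47627740 on the plus strand, a multiple of 3 within the coding region.
Slk alternative exon: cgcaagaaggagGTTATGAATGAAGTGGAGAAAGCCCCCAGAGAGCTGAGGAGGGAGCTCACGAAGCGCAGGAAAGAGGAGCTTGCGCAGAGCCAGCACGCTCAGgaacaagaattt
It was in 21.3% and 29% of counts in 3T3-L1, against 63.4% and 54.4% in M6 (limma adjusted p 0.0387), and the limma adjusted p was 0.148 with M6 replicate 2 from lane A alone. Nf2, the tumour suppressor merlin, has an alternative exon of 45 bases that was in 42.8% and 48.2% of counts in 3T3-L1, against 76.9% and 79.5% in M6 (limma adjusted p 0.0364, and 0.0926 with M6 replicate 2 from lane A alone). Cttn, the actin-binding cortactin, gave no call, although its 111-base exon was in 79.7% and 78.7% in 3T3-L1 and 61.3% and 61.5% in M6 (limma adjusted p 0.307).

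**Figure D5:**
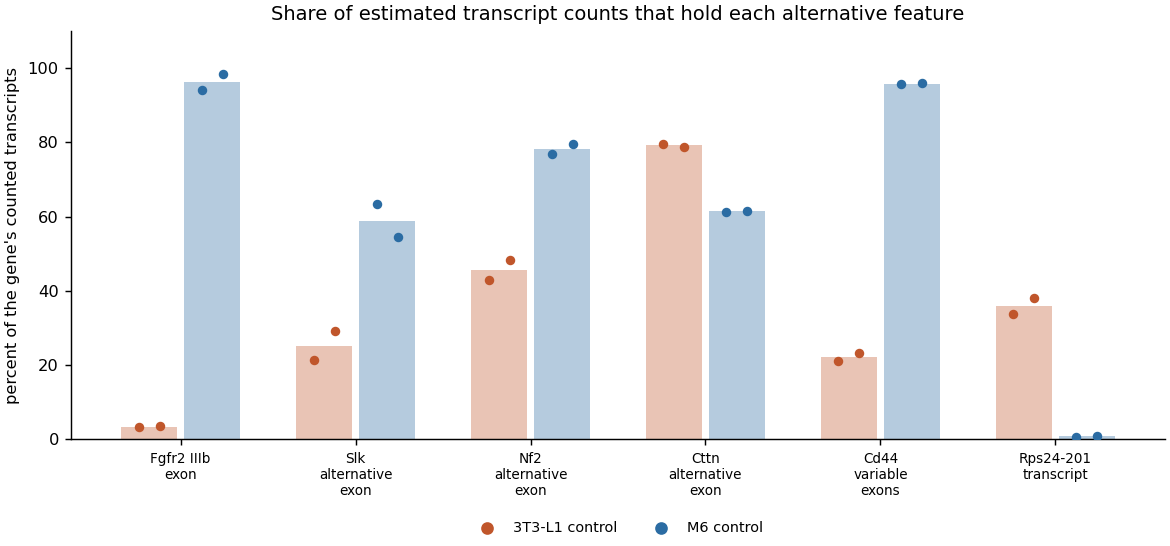
Share of a gene's estimated transcript counts that hold each alternative feature, in percent, as points for the 2 replicates of 3T3-L1 control and of M6 control with bars at their means. The Fgfr2 IIIb exon was at 3.26% and 3.4% in 3T3-L1 and at 94.1% and 98.4% in M6.

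The genes with the smallest p for transcript shares were Klrg2, Selenop, Myh14, Sult2b1, Epb41l5, Sept9, Cntn2 and Ccdc88c. Sept9, a septin of the cytoskeleton, was well covered in both lines: Sept9-202 took 0.844% and 0.301% in 3T3-L1, against 96.3% and 81.2% in M6, and Sept9-205 took 57% and 57.9% in 3T3-L1, against 0.214% and 0.907% in M6 (limma adjusted p 1.49e-04). Epb41l5, a FERM protein that remodels junctions in epithelial to mesenchymal transition, had Epb41l5-202 at 81.6% and 76% in 3T3-L1 and 2.58% and 2.29% in M6 (limma adjusted p 6.96e-05). Myh14, a nonmuscle myosin heavy chain, had Myh14-204 at 93.8% and 94.3% in 3T3-L1 and 16% and 14.6% in M6. Selenop, a selenium carrier, had Selenop-201 at 93.9% and 95.5% in 3T3-L1 and at 0% in both M6 libraries. In several of these genes 1 line had few counts: Myh14 had 112 and 141 counts in 3T3-L1, against 10318 and 41540 in M6, and Cntn2 had 30 and 48 counts in 3T3-L1, against 1298 and 10379 in M6. Selenop had 20330 and 21681 counts in 3T3-L1, against 30 and 306 in M6. Counts this low in 1 line may be carry-over, and the shares estimated from them are uncertain for that line. This was not tested.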

How the data were processed

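Total RNA was sequenced after ribosomal depletion with a strand-specific kit, per the labels' protocols. Per the submitters' processing notes, cutadapt, HISAT2, StringTie and edgeR were used with mm10 or GRCm38; versions, annotation release and strand setting are not given in the sources used here. The authors deposited expected counts, estimated by StringTie from coverage, for 48440 genes and 117667 transcripts, and CPM tables with a normalised signal, which were only compared with the counts. Both signal tables held 1 column that matched no sample and was not used. GENCODE M21 on GRCm38 matched 48058 genes and 116824 transcripts.

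Expected counts were rounded and technical replicates summed. All 14 replicates were fitted together with edgeR 4.0.16 in R 4.3.3 (filterByExpr, TMM factors, robust quasi-likelihood, 8 residual degrees of freedom, biological coefficient of variation 0.323), and p-values were adjusted over 21237 genes. Transcripts with a share of at least 5% in genes of at least 20 counts were tested with limma 3.58.1. DESeq2 1.42.0 was an alternative. Intervals of exon shares are exact binomial and cover counting error only. Those of log2 fold changes come from the edgeR fit and rest on the pooled spread between replicates. Scripts were tested on simulated data.

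Named genes were, per direction, the 10 largest changes at 10 CPM or more and the 6 most abundant at 4-fold or more, with separate replicate ranges. To these came the 4 smallest p in each list, 22 genes fixed by name, and for shares the 8 genes and 4 ESRP targets with the smallest p. Members, lists and tests were chosen with earlier results of these data known. Of the gene lists, endothelial and immune genes gave 4 higher and 2 lower of 11 (36.4% and 18.2%). Muscle, cartilage, bone and neural genes gave 2 higher and 4 lower of 12 (16.7% and 33.3%), against 20.5% and 18.9% over all genes tested. Labels gave M6 controls as empty vector although M6 was treated with gapmers. A few items, some of which the rule for named genes picks, are not reported here.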

Additional observations from a re-analysis of the deposited data

How the results depend on the processing

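Calls of the control comparison, 8368 of 21237 genes, ran from 6108 to 7728 when 1 replicate was left out, and those of overexpression against knockdown, 8048, from 5485 to 6717. Of the 8368 calls, between 60.4% (columns of lanes B and C only) and 98.8% (relative log expression factors) were made again with the same sign. Using those lanes only gave 5321 calls, a test against a fold of 2 gave 4543, and a stricter filter gave 4014 calls at 2-fold or more, against 6747. Without M6 replicate 2 the median log2 difference of all genes moved to 0.25, against 0.05. With M6 replicate 2 from lane A alone 8564 of 21248 genes were called, and with the M27H4 libraries left out and the M6 knockdown also from lane A, chosen after seeing the data, 8035 of 19504. Same-numbered replicates are not paired by the labels (correlation of deviations 0.0704), and the block was fitted to the 4 compared libraries: 7352 genes were called with the replicate block, 3901 higher and 3451 lower, and 7101 of the same 19826 genes without it. Transcript share calls, 244, moved most: 64 with diffSpliceDGE, 105 with lanes B and C only, 0 with the 4 compared libraries alone (902 genes at an unadjusted p under 0.05) and 0 with the replicate block in those 4 (747 at an unadjusted p under 0.05). With only the lane of M6 replicate 2 changed there were 322, but Fgfr2, Nf2 and Slk lost their calls. Without 1 replicate they ran from 109, without 3T3-L1 replicate 2, to 310, without M6 replicate 2. Of 2210 refitted values of named genes, 2160 kept direction and side of the threshold, 37 lost and 11 gained a call, and 2 changed sign, both for Tsix, which gave no call (log2 fold change -1.21): it ran from -3.21 to 1.98 when 1 replicate was left out, the highest without M6 replicate 2 (edgeR adjusted p 0.728), and 1.96 with M6 replicate 2 from lane A (edgeR adjusted p 0.599). The cause was not tested. The median of these lists changed sign under at least 1 alternative: integrins and laminins, receptor kinases, TGF-beta and BMP, cholesterol and fatty acid synthesis, hypoxia and glycolysis, X-inactivation genes, and endothelial and immune markers. That of muscle, cartilage, bone and neural markers reached 0. M6 replicate 1, with 44613743 counts, limits what could be detected at low levels.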
